A study of Mus musculus with 6 samples.

Results

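Mitochondrial complex I, NADH:ubiquinone oxidoreductase, is built largely from nuclear-encoded proteins whose mouse gene symbols begin with Nduf. Their transcripts were followed on 6 one-colour expression arrays of cultured mouse podocytes, the epithelial cells that cover the glomerular capillaries. The genes described were taken from those of a RefSeq table with such a symbol and an array probe matched by transcript accession, leaving out the assembly factors named Ndufaf and the predicted Gm pseudogenes. They comprise 43 probes for 37 genes, out of 39429 gene probes and 32451 genes or unnamed accessions. Of the 37 genes, 35 encode subunits of complex I, and 2 (Ndufa4 and Ndufa4l2) keep an Nduf symbol without being counted among them today. A further 8 Nduf symbols of the table had no matched probe and were not analysed here. The subunits encoded by mitochondrial DNA were not analysed here either.

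All 6 cultures were podocytes immortalised with a temperature-sensitive SV40 T antigen, grown at 33 °C and then differentiated at 37 °C for 10 days. All carried a lentiviral hairpin vector (pGIPZ), and they differed in the hairpin: a scrambled sequence in shControl, or a sequence against the long noncoding RNA Tug1 in shTug1 clone 2 and shTug1 clone 3. Each group had 2 arrays, which the series design calls biological replicates, and each shTug1 group is 1 clone. The arrays therefore ask how Nduf transcripts differ between podocyte cultures with a Tug1 hairpin and with the scrambled one, and between the clones.

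Complex I takes electrons from NADH and passes them to ubiquinone while it pumps protons across the inner mitochondrial membrane. Its peripheral arm holds the N module, where NADH is oxidised at a flavin, and the Q module, where ubiquinone is reduced. Its membrane arm, with a proximal and a distal part, carries the proton pumps. The core subunits do the catalysis and have bacterial counterparts, whereas accessory subunits surround and stabilise them. Podocytes are known to respire through mitochondria as well as to use glycolysis.

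Values are log2 of the processed intensity relative to the array's own 75th percentile over gene spots, called signal below. That percentile ranged from 324.3 to 363.3 on the shControl arrays and from 569.2 to 1055 on the shTug1 arrays. The scale of comparison therefore matters for every gene, dim or bright. Between 58.2% and 68% of gene probes were well above background, and 0 gene spots were saturated. Both shControl arrays were on 1 slide and all 4 shTug1 arrays on the other, and the effect of the slide and that of the hairpin cannot be told apart. The targeted transcript went against the label of clone 2: the Tug1 probe that was well above background on all arrays read −2.88 and −2.49 in shControl, −1.86 and −1.88 in clone 2, and −3.10 and −3.23 in clone 3. Both clone 2 arrays were higher than both shControl arrays for this probe, and both clone 3 arrays were lower. Neither difference passed the test (0.81 with an adjusted p of 0.0798 for clone 2, and −0.48 with an adjusted p of 0.321 for clone 3, limma with Benjamini-Hochberg adjustment). Without scaling, Tug1 was higher on the clone 2 arrays (2.36, adjusted p = 0.00243, limma), and the clone 3 difference turned to 0.52 (adjusted p = 0.442). A dimmer Tug1 probe was well above background on just 3 arrays. It read −6.21 and −6.38 in shControl, −2.73 and −2.94 in clone 2, and −6.36 and −3.58 in clone 3. Both clone 2 arrays were thus highest on it, and the lower clone 3 level was not repeated. On the remaining Tug1 probe all 4 shTug1 arrays read below shControl, but it was well above background on 0 arrays. Clone 2 and clone 3 below therefore mean the arrays so labelled. Of 15 podocyte markers, 13 were well above background on both shControl arrays and 12 on those of each clone; Podxl and Tcf21 were not in any group, nor Magi2 in the clones.

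Promoters of 3 genes that rose and of 3 Q module genes that fell, chosen with their values known, are shown because these genes went in opposite directions; the windows run from 250 bases before to 50 bases after the start of transcription (RefSeq, GRCm38.p6). Capitals mark matches, on either strand, to letters that factors linked to mitochondrial genes are known to bind: GCGCANGCG for NRF-1, CCGGAAG for ETS factors and AAGATGGC for YY1. The first 3 windows belong to genes that rose and the last 3 to genes that fell, in the test described below.
Ndufa10 (chr1:92473709-92474008, minus strand): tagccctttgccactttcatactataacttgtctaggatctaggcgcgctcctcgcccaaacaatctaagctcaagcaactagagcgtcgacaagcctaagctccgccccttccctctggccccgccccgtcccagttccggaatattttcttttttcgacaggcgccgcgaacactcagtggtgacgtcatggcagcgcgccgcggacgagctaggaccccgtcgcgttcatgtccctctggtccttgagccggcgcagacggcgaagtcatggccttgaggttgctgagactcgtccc
Ndufa11 (chr17:56717512-56717811, plus strand, NRF-1 match): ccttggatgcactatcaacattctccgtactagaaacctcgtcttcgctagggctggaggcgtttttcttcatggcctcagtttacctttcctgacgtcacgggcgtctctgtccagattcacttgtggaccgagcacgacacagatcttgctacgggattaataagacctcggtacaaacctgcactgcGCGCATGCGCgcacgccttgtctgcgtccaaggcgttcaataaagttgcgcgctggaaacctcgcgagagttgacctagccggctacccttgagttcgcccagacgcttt
Ndufs8 (chr19:3912725-3913024, minus strand, ETS match): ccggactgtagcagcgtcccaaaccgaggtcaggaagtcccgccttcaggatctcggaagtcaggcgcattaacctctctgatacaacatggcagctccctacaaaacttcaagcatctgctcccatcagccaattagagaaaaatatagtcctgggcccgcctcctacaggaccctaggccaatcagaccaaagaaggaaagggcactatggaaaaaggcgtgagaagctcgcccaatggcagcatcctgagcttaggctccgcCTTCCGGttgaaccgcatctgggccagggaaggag
Ndufa5 (chr6:24527641-24527940, minus strand, NRF-1 match): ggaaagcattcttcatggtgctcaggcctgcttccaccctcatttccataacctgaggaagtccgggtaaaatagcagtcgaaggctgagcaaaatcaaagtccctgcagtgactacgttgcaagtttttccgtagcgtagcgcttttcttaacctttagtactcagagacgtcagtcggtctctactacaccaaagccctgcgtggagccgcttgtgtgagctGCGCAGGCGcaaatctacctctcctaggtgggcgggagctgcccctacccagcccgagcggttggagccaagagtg
Ndufs3 (chr2:90904672-90904971, minus strand, ETS matches): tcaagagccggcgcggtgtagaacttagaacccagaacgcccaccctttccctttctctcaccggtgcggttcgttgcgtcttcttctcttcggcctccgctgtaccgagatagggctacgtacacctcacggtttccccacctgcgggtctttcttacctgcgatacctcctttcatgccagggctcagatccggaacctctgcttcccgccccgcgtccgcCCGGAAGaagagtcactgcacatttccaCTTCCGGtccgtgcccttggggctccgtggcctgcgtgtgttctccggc
Ndufs7 (chr10:80249199-80249498, plus strand, YY1 match): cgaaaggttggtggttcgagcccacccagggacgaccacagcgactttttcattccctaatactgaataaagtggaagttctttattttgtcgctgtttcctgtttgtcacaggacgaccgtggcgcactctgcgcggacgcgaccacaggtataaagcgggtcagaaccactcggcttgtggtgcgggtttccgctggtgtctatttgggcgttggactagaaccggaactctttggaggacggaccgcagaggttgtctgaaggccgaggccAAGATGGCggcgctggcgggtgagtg
Of the 37 genes, 33 had a window in the table: 3 that rose, 21 that fell and 9 that did not pass. NRF-1 letters were in windows of 8 of the 33 genes, against 6.25% of all 32851 windows; these letters can overlap their own reverse complement, as they do in the Ndufa11 window. ETS letters were in those of 4 genes (8.86% of all windows), and YY1 letters in those of 7 (2.75%). NRF-1 letters were in the windows of 1 gene that rose (Ndufa11), 5 that fell and 2 that did not pass, and ETS letters in those of 1 that rose (Ndufs8) and 3 that fell. YY1 letters were in the windows of 0 genes that rose, 5 that fell and 2 that did not pass. The matches of Ndufs8 and Ndufs7 and the second match of Ndufs3 lay after the start of transcription. A match describes letters in a window and not a bound site.

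With 75th percentile scaling, 24 of the 37 Nduf genes were lower and 3 were higher in the mean of the shTug1 clones than in shControl (adjusted p under 0.05, limma). Ndufa10, 1 of those that were higher, entered the test through the shTug1 arrays, because its probe was well above background on just 1 of the 2 shControl arrays. Over all 21473 genes tested, 30.4% were lower and 10.2% higher in the same comparison. The 3 genes that rose were Ndufa10, Ndufs8 and Ndufa11, and they were also higher with quantile normalization and with no scaling. The falls did not keep to one reading: with quantile normalization 2 Nduf genes fell (Ndufa5 and Ndufa9, where 15.7% of all genes fell and 11.3% rose), and with no scaling 0 fell and 4 rose (0.554% and 29.2% of all genes). At an unadjusted p under 0.05, 0 Nduf genes were lower without scaling. In these cultures fewer cells with a transcript and less of it per cell cannot be told apart.

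**Figure D1:**
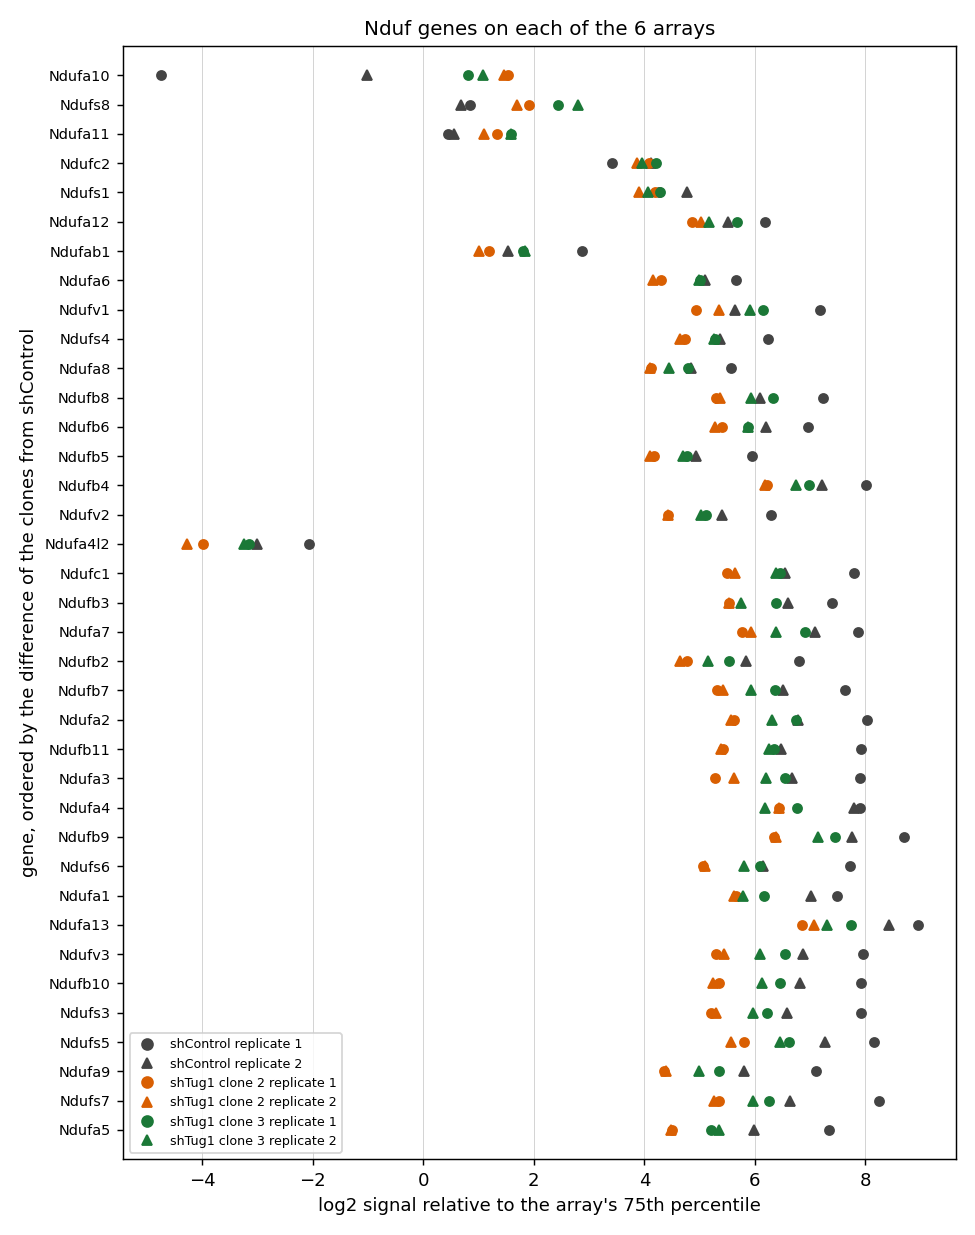
Signal of each of the 37 Nduf genes on each array, as log2 relative to the array's 75th percentile; circles are replicate 1 and triangles replicate 2, coloured by group, and genes are ordered by the fitted difference. At this scaling, genes at the bottom are highest in shControl replicate 1 and lowest in clone 2; the 3 genes at the top are lowest in shControl.

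The median gene of the array itself shifted with the scale. The median log2 difference over all genes tested was −0.64 in the mean comparison, −0.80 for clone 2, −0.46 for clone 3 and 0.38 for clone 3 minus clone 2. The median of the 37 Nduf genes was −1.20, −1.59, −0.84 and 0.78 in the same order. Relative to the median gene, the Nduf median was thus −0.56, −0.79, −0.38 and 0.40. In the mean comparison it was −0.27 without shControl replicate 1 and −0.30 with normexp background correction. Array by array, the Nduf median relative to that of all genes was 8.42 and 7.40 in shControl, 6.48 and 6.55 in clone 2, and 7.45 and 7.12 in clone 3 (replicate SD 0.44), so shControl and clone 3 overlapped. With quantile normalization the median of all genes was −0.27 in the mean comparison, and the Nduf median relative to it was −0.02. The 24 genes that fell lay from 0.33 to 1.14 below the median gene on the log2 scale. The smallest of these falls was −0.96, and the median gene lay at −0.64. At the SEs of these genes a smaller fall would hardly have passed, so this position follows largely from the call.

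**Figure D2:**
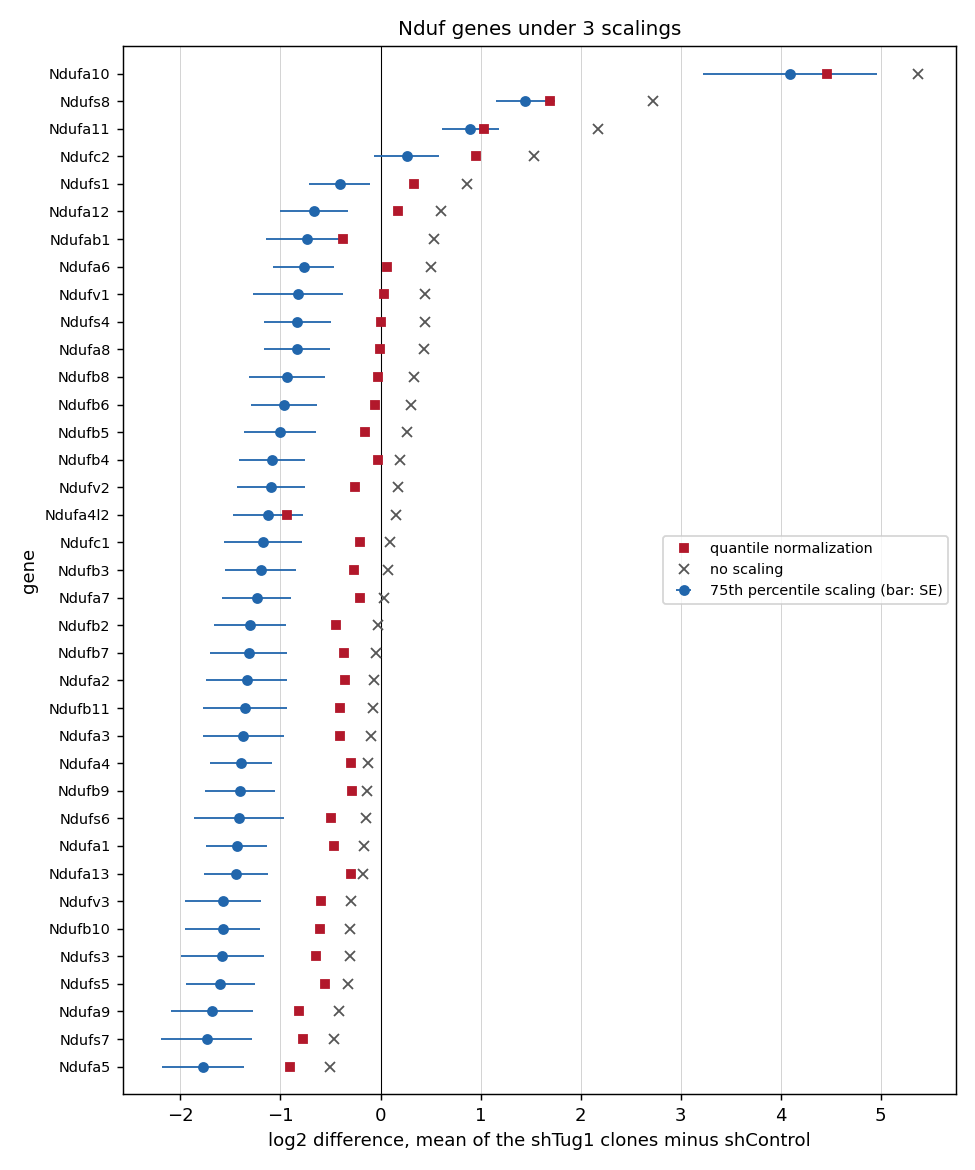
Log2 difference of the mean of the shTug1 clones from shControl for each Nduf gene, with 75th percentile scaling (circles, bars are the SE), quantile normalization (squares) and no scaling (crosses). Ndufa10, Ndufs8 and Ndufa11 lie above 0 with each scaling. Most of the 33 genes below 0 with 75th percentile scaling lie closer to 0 with the other scalings. Of these genes, 5 lie above 0 with quantile normalization and 16 with no scaling.

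Ndufa10, an accessory subunit of the membrane arm related in sequence to nucleoside kinases, passed as higher with a shControl level that is poorly measured. It read −4.74 and −1.01 in shControl, 1.53 and 1.45 in clone 2, and 0.81 and 1.08 in clone 3. All 4 shTug1 arrays were above both shControl arrays, which themselves lay far apart, and the probe was well above background on 1 of the 2 shControl arrays. Replicate 1 lay below the lowest signal that was well above background on that array, so the fitted difference of 4.10 (SE 0.87, adjusted p = 0.0165, limma) is not an exact size. It was 2.23 without shControl replicate 1 (adjusted p = 0.031) and 2.65 with normexp background correction. Before any scaling its intensity was 179.8 in shControl replicate 2, lower still in replicate 1, and between 998.9 and 3039 on the shTug1 arrays. Leaving out either clone 3 array ended the call (adjusted p of 0.0508 without replicate 1 and 0.0632 without replicate 2).

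Ndufs8, a core subunit of the Q module that carries iron-sulfur clusters, was well above background on all 6 arrays. It read 0.85 and 0.68 in shControl, 1.91 and 1.70 in clone 2, and 2.44 and 2.80 in clone 3. Replicates lay close together in each group and the 3 groups did not overlap. Ndufs8 rose by 1.45 (SE 0.29, adjusted p = 0.0153, limma) in the mean of the clones, by 1.04 in clone 2 (adjusted p = 0.041) and by 1.86 in clone 3 (adjusted p = 0.0302). The clone 2 call was lost without any 1 of the 4 shTug1 arrays (adjusted p from 0.0921 to 0.235), with the replicate block (0.0577) and with no filter on dim probes (0.0604). The clone 3 call was lost without either clone 3 array (0.165 and 0.253) and with no filter (0.0501). Its unscaled intensity was 584.9 and 581.2 in shControl and between 3087 and 5794 on the shTug1 arrays. Leaving out either clone 3 array ended the call in the mean comparison (adjusted p of 0.0534 without replicate 1 and 0.0724 without replicate 2).

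Ndufa11, a membrane arm subunit at the contact with other respiratory complexes, showed the smallest of these rises. It read 0.45 and 0.56 in shControl, 1.34 and 1.1 in clone 2, and 1.58 and 1.59 in clone 3. Both shControl arrays were lowest and the groups did not overlap. The difference was 0.90 (SE 0.28, adjusted p = 0.039, limma). Leaving out any 1 of the 4 shTug1 arrays ended the call, with adjusted p between 0.0978 and 0.15. For either clone alone it did not pass (0.72 with an adjusted p of 0.103 for clone 2 and 1.08 with 0.0708 for clone 3). In the mean comparison the call also ended with the replicate block (adjusted p = 0.0564, limma) and with no filter on dim probes (0.0533).

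**Figure D3:**
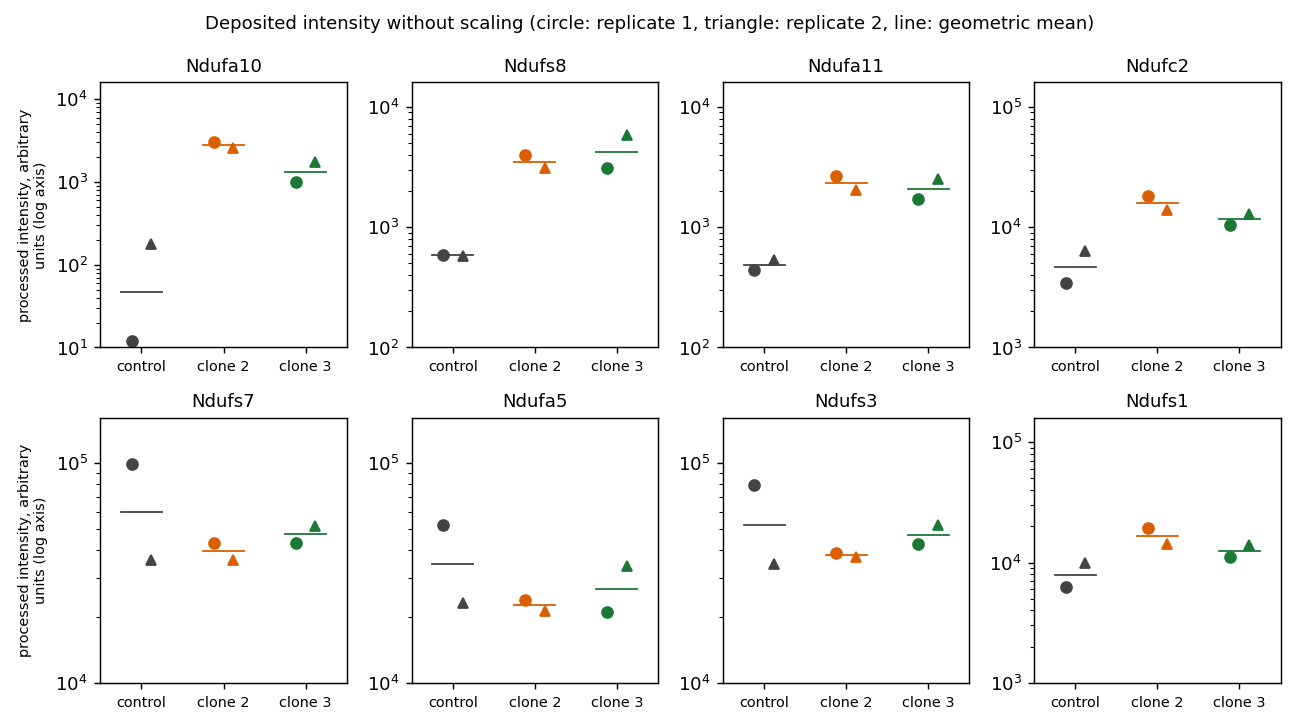
Deposited processed intensity on each array, without scaling, on log axes, for the 3 Nduf genes that rose and Ndufc2, described below (upper row), and for Ndufs7, Ndufa5, Ndufs3 and Ndufs1 (lower row). Circles are replicate 1, triangles replicate 2 and lines geometric means; the upper row is lowest in shControl, and in the first 3 lower panels shControl replicate 1 stands alone above the others.

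The falls were led by accessory and core subunits of the Q module. Ndufa5, an accessory subunit of the peripheral arm, read 7.33 and 5.98 in shControl, 4.49 and 4.49 in clone 2, and 5.20 and 5.35 in clone 3. Every shTug1 array was below both shControl arrays. It fell by 1.77 on the log2 scale (SE 0.41, adjusted p = 0.0185, limma), and by 0.90 with quantile normalization (adjusted p = 0.0435), but it did not pass without scaling (−0.50, adjusted p = 0.416). Without shControl replicate 1 the 75th percentile difference was −1.1 (adjusted p = 0.0356). The dimmer of its probes gave −1.17 (adjusted p = 0.0596 in the fit over probes).

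Ndufs7, a core subunit that holds the last iron-sulfur cluster before ubiquinone, read 8.24 and 6.64 in shControl, 5.35 and 5.26 in clone 2, and 6.25 and 5.96 in clone 3. At this scaling its groups did not overlap, and shControl replicate 1 stood well above replicate 2. The fitted difference was −1.74 (SE 0.45, adjusted p = 0.024, limma). It was −0.77 with quantile normalization (adjusted p = 0.085) and −0.47 without scaling (adjusted p = 0.468), and with 75th percentile scaling it was −0.94 without shControl replicate 1 (adjusted p = 0.0451). In the deposited intensities, Ndufs7 was at 98190 and 36320 in shControl, 42990 and 36320 in clone 2, and 43190 and 51810 in clone 3. On that scale shControl replicate 2 was among the lowest arrays and the groups overlapped.

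Ndufa9, an accessory subunit next to the ubiquinone site, read 7.10 and 5.81 in shControl, 4.35 and 4.39 in clone 2, and 5.35 and 4.98 in clone 3. It fell by 1.69 (adjusted p = 0.0204, limma) and by 0.82 with quantile normalization (adjusted p = 0.0462), and gave −0.41 without scaling. Ndufs3, a core Q module subunit, read 7.93 and 6.58 in shControl, 5.21 and 5.29 in clone 2, and 6.23 and 5.97 in clone 3. Its difference was −1.58 (adjusted p = 0.024), and −0.64 with quantile normalization (adjusted p = 0.0897). In both genes the groups did not overlap and clone 2 was lowest. Without shControl replicate 1 their differences were −1.04 (adjusted p = 0.0434) for Ndufa9 and −0.90 (adjusted p = 0.0464) for Ndufs3.

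In the membrane arm, the largest falls were those of Ndufs5 and Ndufb10, which both face the intermembrane space. Ndufs5 read 8.15 and 7.27 in shControl, 5.80 and 5.58 in clone 2, and 6.61 and 6.45 in clone 3. Its difference was −1.60 (SE 0.34, adjusted p = 0.0168, limma) with 75th percentile scaling and −0.56 (adjusted p = 0.086) with quantile normalization. Ndufb10 read 7.91 and 6.82 in shControl, 5.35 and 5.25 in clone 2, and 6.45 and 6.12 in clone 3. Its difference was −1.58 (adjusted p = 0.0199) and −0.60 (adjusted p = 0.0769) by the same scalings. Without shControl replicate 1 Ndufb10 was at −1.03 (adjusted p = 0.0427). In both genes shControl was highest, clone 2 lowest and clone 3 between them, with no overlap.

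The core subunits of the N module had the smallest differences among the core subunits. Ndufv1, which binds NADH and the flavin, read 7.18 and 5.64 in shControl, 4.93 and 5.34 in clone 2, and 6.14 and 5.91 in clone 3. Its clone 3 arrays lay between the shControl arrays, and the difference of −0.83 did not pass (SE 0.45, adjusted p = 0.164, limma). Ndufs1, the largest iron-sulfur subunit of this module, read 4.27 and 4.77 in shControl, 4.19 and 3.90 in clone 2, and 4.28 and 4.07 in clone 3. Its groups overlapped (−0.41, adjusted p = 0.294), and its difference turned to 0.34 with quantile normalization, as that of Ndufv1 turned to 0.04. Ndufv2, the partner of Ndufv1, read 6.29 and 5.40 in shControl, 4.42 and 4.42 in clone 2, and 5.12 and 5.02 in clone 3. It was the core subunit of the N module that passed (−1.09, adjusted p = 0.0377), though not with quantile normalization (−0.26) and with the opposite sign without scaling (0.18). The call also ended without shControl replicate 1 (−0.65, adjusted p = 0.0689) and with no filter on dim probes (adjusted p = 0.0522).

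By module with 75th percentile scaling, 4 of 8 N module genes fell, 0 rose and 4 did not pass. In the Q module 5 of 7 fell, 1 rose (Ndufs8) and 1 did not pass. In the proximal membrane arm 5 of 9 fell, 2 rose (Ndufa10 and Ndufa11) and 2 did not pass. In the distal membrane arm 8 of 10 fell, 0 rose and 2 did not pass. The acyl carrier Ndufab1, which serves mitochondrial fatty acid synthesis as well, did not pass (−0.74, adjusted p = 0.167, limma). Of the 6 core subunits described, 3 fell, 1 rose and 2 did not pass. Over all genes tested, 30.4% fell and 10.2% rose. Among genes with a mean signal above 4, a split described below, 57.5% fell and 2.21% rose. That brighter set holds 31 of the 37 Nduf genes. With quantile normalization the Q module kept 1 rise and 2 falls, and the N module had 0 calls in either direction (limma; 1 lower and 0 higher at an unadjusted p under 0.05). On that scale 15.7% of all genes fell and 11.3% rose.

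The other 21 members, those outside the genes described one by one, held 14 that fell and 7 that did not pass, with differences from −1.44 to 0.26. With quantile normalization 0 of these 21 passed in either direction (limma; 1 was higher and 0 lower at an unadjusted p under 0.05), and their differences ran from −0.49 to 0.95. The highest of them was Ndufc2, a small membrane subunit that read 3.42 and 4.12 in shControl, 4.09 and 3.86 in clone 2, and 4.20 and 3.96 in clone 3. It overlapped between groups with 75th percentile scaling (0.26, adjusted p = 0.516) and passed as higher without scaling (1.54, adjusted p = 0.0134, limma). It was chosen for this description after its values were seen.

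Ndufa4 and Ndufa4l2 do not belong to complex I. Ndufa4, now assigned to cytochrome c oxidase, read 7.91 and 7.79 in shControl, 6.44 and 6.44 in clone 2, and 6.76 and 6.18 in clone 3. Its shControl arrays agreed closely and every shTug1 array lay below both of them (−1.39, SE 0.31, adjusted p = 0.0173, limma). The clone 2 arrays lay between the clone 3 arrays. However, the difference was −0.29 with quantile normalization and −0.12 without scaling, neither of which passed. Ndufa4l2, its hypoxia-inducible relative, was far dimmer, at −2.07 and −3.01 in shControl, −3.99 and −4.27 in clone 2, and −3.15 and −3.25 in clone 3. It was −1.12 with 75th percentile scaling (adjusted p = 0.0389), −0.94 with quantile normalization (adjusted p = 0.0592) and 0.15 without scaling. Without shControl replicate 1 it no longer passed (−0.65, adjusted p = 0.0886), nor with no filter on dim probes (adjusted p = 0.0526).

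For 6 genes the array carried a second probe. For Ndufb5 the brighter probe gave −1.01 (adjusted p = 0.0575 in the fit over probes), with 5.95 and 4.94 in shControl, 4.17 and 4.11 in clone 2, and 4.77 and 4.69 in clone 3. Its dimmer probe gave 0.63 (adjusted p = 0.107), with all 4 shTug1 arrays above shControl. For Ndufv3, an accessory subunit near the flavin, the brighter probe read 7.95 and 6.88 in shControl, 5.30 and 5.44 in clone 2, and 6.55 and 6.09 in clone 3, and fell (−1.57, adjusted p = 0.0214 in the fit over probes). In the fit over genes it did not pass without shControl replicate 1 (−1.03, adjusted p = 0.0509). Its dimmer probe gave 0.16 (adjusted p = 0.731) and its groups overlapped. The brighter Ndufb6 probe fell (−0.96, adjusted p = 0.0497 in the fit over probes, limma). The second Ndufb6 probe, well above background on all 6 arrays, did not pass (−0.12, adjusted p = 0.728). That probe gave −0.49 in clone 2 and 0.25 in clone 3, neither of which passed. The second Ndufb4 probe fell as the brighter one did (−1.15, adjusted p = 0.0403). The second Ndufb11 probe was well above background on the 2 clone 2 arrays alone. Its fitted differences were opposite in sign to those of the brighter probe (0.82 in the mean comparison with an adjusted p of 0.149, and 1.48 in clone 2 with 0.043), and they rest on shControl values that were not well above background. Ndufb4, Ndufab1, Ndufa11, Ndufa12, Ndufs5 and Ndufs6 have close copies or pseudogenes with Nduf symbols that had no probe of their own, so their probes may read more than 1 transcript.

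The difference was related to brightness. Over the 37 Nduf genes, the log2 difference in the mean comparison and the mean signal had a Pearson r of −0.63 and a Spearman rho of −0.65 with 75th percentile scaling, and −0.48 and −0.37 with quantile normalization. These points share the same 6 arrays and the same scaling, and the values are a description. Split at a mean signal of 4, a value chosen after the data were seen, 23 of the 31 brighter Nduf genes fell and 0 rose, where 57.5% of the 2534 genes above the split fell and 2.21% rose. Of the 6 Nduf genes at or below it, 3 rose and 1 fell, where 11.2% of 18939 genes rose and 26.8% fell. Among the 3 that rose is Ndufa10, which entered the test through the shTug1 arrays, where it is high. It is also among the points of the correlations, so these counts and correlations are no support for its rise.

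**Figure D4:**
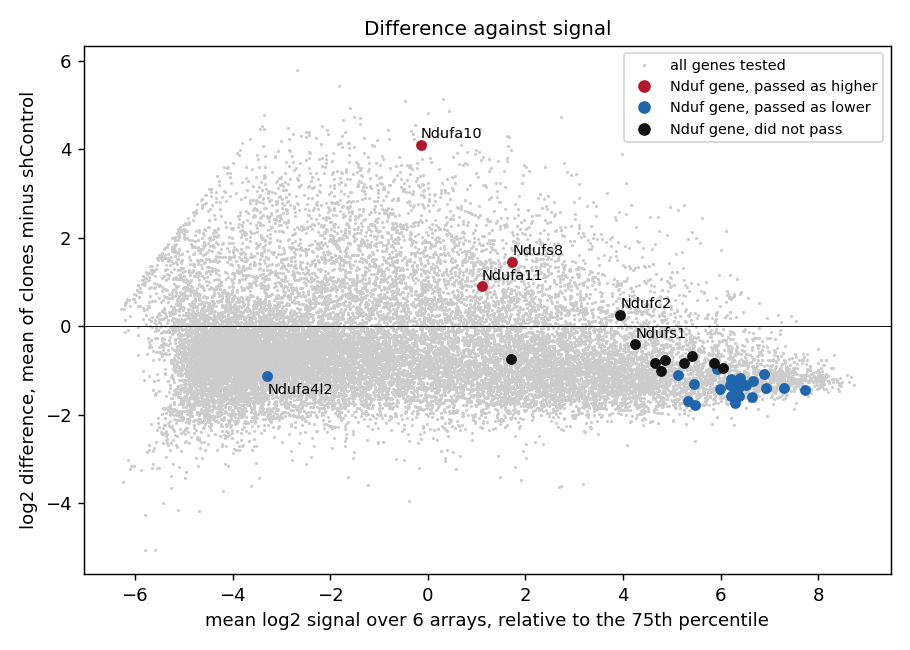
Log2 difference of the mean of the clones from shControl against mean signal over the 6 arrays, both with 75th percentile scaling, for all genes tested (grey) and for the Nduf genes (coloured by call). Most Nduf genes sit at the bright end, where the grey points also lie below 0 at this scaling; the 3 that rose are dimmer.

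The shControl arrays differed from each other more than the arrays of either clone did. The median absolute difference between replicates over the 37 genes was 0.94 in shControl, 0.10 in clone 2 and 0.28 in clone 3, against 0.72, 0.22 and 0.24 over all genes. shControl replicate 1 was the highest of the 6 arrays for 32 of the 37 genes and the lowest for 3. In 30 of the 31 brighter genes shControl replicate 1 was highest, and in 29 both clone 2 arrays were lowest. In 28 of the 31 both clone 3 arrays were below shControl replicate 2 as well. Of all 2534 genes this bright, 81.2% had shControl replicate 1 highest, 79.2% both clone 2 arrays lowest and 72.1% both clone 3 arrays below shControl replicate 2. Leaving out shControl replicate 1 reduced the falls from 24 to 10, and leaving out either clone 3 array reduced them to 0 (limma; 23 at an unadjusted p under 0.05 in each case). Leaving out clone 2 replicate 1 left 12 falls and clone 2 replicate 2 left 15. The share of all genes that fell was 15.9% without shControl replicate 1, 3.09% and 0.508% without clone 3 replicate 1 and 2, and 18.8% and 21.7% without clone 2 replicate 1 and 2.

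Taken clone by clone with 75th percentile scaling, clone 2 had 29 of 37 Nduf genes lower and 2 higher (Ndufa10 and Ndufs8) than shControl, where 33.8% of all genes were lower and 10.2% higher. With quantile normalization 3 were lower and 3 higher (16.5% and 10.4% of all genes), and without scaling 0 were lower and 4 higher (0.647% and 30.6%). Without clone 2 replicate 1 or replicate 2 the falls numbered 8 and 10, and without either clone 3 array 16, where 11.3%, 15.7% and 16.1% of all genes were lower. Clone 3 had 0 lower and 1 higher (Ndufs8), where 4.68% of all genes were lower and 4.35% higher; at an unadjusted p under 0.05, 11 Nduf genes were lower and 3 higher by limma. Without shControl replicate 2, clone 3 had 30 genes lower and 3 higher, where 40.2% of all genes were lower and 12.9% higher. These comparisons share the shControl arrays.

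Clone 3 minus clone 2 is the comparison within 1 slide. No Nduf gene passed in either direction (limma, 0 of 37; 1 higher and 0 lower at an unadjusted p under 0.05), where 0.345% of all genes were higher and 0.922% lower. The differences ran from −0.55 (Ndufa10) to 0.99 (Ndufb10, adjusted p = 0.383). The test takes its spread from all 3 groups, and the shControl replicates differed most. Their median absolute difference over the Nduf genes was 0.94, against 0.10 in clone 2 and 0.28 in clone 3. A gene that did not pass is therefore not shown to be equal in the clones. With 75th percentile scaling both clone 3 arrays were above both clone 2 arrays for 33 of the 37 genes and below them for 1, where 58.9% and 16.4% of all genes showed the same. In the comparison of all 4 shTug1 arrays with shControl, arrays did not overlap for 28 genes that were lower and 3 that were higher, where the shares of all genes were 43.1% and 12.3%.

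Genes that build complex I and genes of the other respiratory complexes were read from the same fit. Of 21 assembly factors tested, 6 fell, 2 rose and 13 did not pass, with a median of −0.15. These shares are near those of all genes given above (30.4% and 10.2%). The factors that rose, named after their values were seen, were Tmem126a (3.38, adjusted p = 0.0134, limma) and Tmem126b (1.15, adjusted p = 0.041). Tmem126a read −2.99 and −0.53 in shControl, 1.79 and 2.15 in clone 2, and 0.97 and 1.57 in clone 3. It stayed higher with quantile normalization (3.67, adjusted p = 0.0287), whereas Tmem126b did not pass (1.25, adjusted p = 0.0696). Ecsit, the factor that fell furthest (−1.78, adjusted p = 0.0167), also fell with quantile normalization (−1.04, adjusted p = 0.0303).

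A list for complexes II to V held 61 genes, of which 44 were tested. It is not limited to subunits in the strict sense, as it holds Atpif1 and Cox7a2l, which both fell. Of the 44 genes, 25 fell, 1 rose (Cox6b1, 1.17, adjusted p = 0.032, limma, and 1.55 with quantile normalization) and 18 did not pass, with a median of −1.06. Of 76 mitochondrial ribosomal proteins, 32 fell, 13 rose and 31 did not pass, with a median of −0.90. In the same comparison 30.4% of all genes fell and 10.2% rose. Of all genes with a mean signal above 4, 57.5% fell and 2.21% rose. With quantile normalization 15.7% of all genes fell and 11.3% rose. On that scale 1 gene of the list for complexes II to V fell and 3 rose, and 3 ribosomal proteins fell and 17 rose. The medians over these lists then lay at −0.13 and −0.15, beside −0.29 for the Nduf genes and −0.27 for all genes.

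Markers of the culture moved in the same comparison. The summed signal of the podocyte markers, as multiples of the 75th percentile, was 123 to 141 in shControl, 73.2 to 76.3 in clone 2 and 66.1 to 69.4 in clone 3. Mesangial and stromal markers summed to 554 to 565 in shControl, 214 to 225 in clone 2 and 239 to 319 in clone 3, with Itga8 and Des not well above background in any group. Tubular and parietal markers summed to 174 to 327, 45.3 to 48.4 and 65 to 83, endothelial markers to 5.89 to 5.99, 2.64 to 3.21 and 2.78 to 3.24, and immune markers to 7.64 to 12.8, 2.42 to 2.57 and 2.96 to 3.76, in the same order. All 5 sums were higher in shControl at this scaling. Detection of single markers did not always go with the sums. Umod and Cldn1, of the tubular and parietal list, were well above background on both arrays in clone 2 but not in shControl or clone 3. Ptprc, of the immune list, was so in each clone but not in shControl. The part of the markers in the Nduf differences was not tested.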

How the data were processed

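RNA from 6 podocyte cultures was hybridised to one-colour (Cy3) Agilent mouse arrays, 2 per group, grouped by sample title. The deposited scanner files give a processed intensity per spot, background-corrected per the file headers, and come from version 11.0.1.1 of Agilent Feature Extraction according to the submitters' processing notes. The authors' deposited value table holds log2 values of 41 of the 43 Nduf probes; its normalization method was not given in the sources used, and it served as an alternative. Slides were told apart by the scan start in the file headers.

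From these, log2 intensity minus each array's 75th percentile over gene spots was taken. Control spots and non-uniform or population outlier spots were dropped, and a probe's spots averaged. A probe stayed in the test if 1 or more groups had both arrays well above background (all 43 Nduf probes did), and each gene kept its brightest probe. Symbols came by accession from RefSeq (27234 of 39429 probes matched). limma 3.58.1 in R 4.3.3 fitted 3 group means, with 4.69 prior and 3 residual degrees of freedom, two-sided tests, Benjamini-Hochberg adjustment over 21473 genes and a threshold of 0.05. The model was run on simulated data with the same spread in every group, where the check was that mean estimates returned the set effect. Groups of unequal spread were not simulated.

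Genes given array by array were the 6 core subunits, up to 6 largest rises and 6 largest falls that passed, members with probes well above background on all arrays that differ in sign, and Ndufa4 and Ndufa4l2. A further gene that the rule finds is not reported here and is in no count or median of the Nduf genes. Members and lists were chosen with earlier results of these data known. Alternatives were a replicate block, quantile normalization, normexp correction (offset 50, on median signals), other filters, every kept probe, the deposited log2 values, a variance trend, leaving out each array and, chosen after seeing the data, no scaling. Replicate numbers did not pair the arrays: correlations of same-numbered deviations were −0.04, 0.11 and −0.09.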

Additional observations from a re-analysis of the deposited data

How the results depend on the processing

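Each count of the Nduf genes was recomputed under the alternatives named above and with no scaling, which was chosen after seeing the data. In the mean comparison, the 24 falls became 2 with quantile normalization, 3 with the deposited log2 values and 0 without scaling. The 3 rises became 2 with the deposited values and with probes well above background on all arrays, both of which leave out the probe of Ndufa10. The rises were also 2 with no filter on dim probes and with the replicate block, where Ndufa11 did not pass. For clone 2 the 29 falls became 3, 4 and 0 under the same 3 scalings, and the 2 rises became 4 without scaling and 1 with probes well above background on all arrays or with no filter. For clone 3 the 1 rise became 2 with quantile normalization, the deposited values, the stricter filter and the variance trend, 3 with normexp and without scaling, and 0 with no filter (3 at an unadjusted p under 0.05, limma), and the 0 falls became 6 with normexp, 2 with the stricter filter and 3 with the trend. Over all genes tested, 12723 fell in the mean comparison with normexp, 3370 with quantile normalization and 119 without scaling, against 6532. The median of the Nduf genes relative to all genes moved to −0.0222 (mean) and 0.0122 (clone 2) with quantile normalization and to 0.0169 and 0.0425 with the deposited values.

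With the replicate number as a block, 2 Nduf genes rose and 23 fell in the mean comparison, 1 and 27 in clone 2, 2 and 0 in clone 3, and 0 and 0 between the clones; the numbers do not pair the arrays. Leaving out 1 array at a time gave 0 to 3 rises and 0 to 32 falls in the mean comparison, 1 to 3 rises and 8 to 32 falls in clone 2, 0 to 3 rises and 0 to 30 falls in clone 3, and 0 of either between the clones; a group left with 1 array was assumed to vary like the others.

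Of the 33 Nduf genes below 0 in the mean comparison, 5 were above 0 with quantile normalization and 16 without scaling. Among genes given array by array, the sign turned for Ndufs1 (0.34 with quantile normalization, 0.35 with the deposited values, 0.86 without scaling), Ndufv1 (0.0383, 0.0858 and 0.45) and, without scaling, Ndufa4l2 (0.15), Ndufb5 (0.27) and Ndufv2 (0.18). Ndufa10 gave 2.65 with normexp against 4.10. The cause was not tested. The number of arrays, 2 a group, limits how precise any value is, and Ndufa10 was not well above background on 1 shControl array.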
